A study of Mus musculus with 4 samples.

Results

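CD8 T cells in which a transcript of Pdcd1 or of Havcr2 was not detected were picked out of single-cell transcriptomes of leukocytes, sorted for CD45, from MC38 tumors, a mouse colon carcinoma. Pdcd1 (chromosome 1, 94038305 to 94052553, minus strand, GRCm38) encodes PD-1 and Havcr2 (chromosome 11, 46454935 to 46481255, plus strand) encodes TIM-3. A cell was chosen by its UMIs, that is, by its counted transcript molecules. It needed at least 500 detected genes, at most 10% mitochondrial UMIs, at least 3 UMIs of Cd3d, Cd3e and Cd3g together, under 0.2% of its UMIs on the macrophage genes C1qa, C1qb, C1qc and Csf1r, at least 2 UMIs of Cd8a and Cd8b1 together, no Cd4 and no Foxp3 UMI, and no UMI of Pdcd1, of Havcr2, or of both. The rule found 367 cells of 28290 in the series. They were 51.5% of the 713 CD8 T cells that passed the same rule without its last clause, and the other 346 CD8 T cells held UMIs of both genes.

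All mice were humanized CTLA-4 mice (B-hCTLA-4) on the C57BL/6 background. They carried subcutaneous tumors from 500000 MC38 cells, had tumors of about 100 mm3 when dosing began, received 3 treatments and were sampled on day 8. The tumors of 11 mice were pooled in each of 4 groups, with 1 library per group. The isotype control group received human IgG1 at 10 mg/kg. The combination group received ipilimumab, an antibody to human CTLA-4, at 10 mg/kg together with AT130-2, an antibody to mouse FcγRII in the N297A format of mouse IgG1, at 20 mg/kg. The other libraries came from mice given a single antibody, and they are called here by their titles, anti-hCTLA-4 and anti-FcγRII. For both of them the title and the treatment field name opposite antibodies, so which antibody each received was not resolved. The article describes a single-cell experiment with other numbers of tumors, another day and other doses than the labels. Sorted cells were fixed and read with gene-specific probes.

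CD8 T cells kill target cells that present a matching peptide. On repeated contact with antigen in a tumor they gain inhibitory receptors, among them PD-1, TIM-3 and LAG-3. Cells early on that path, and cells that have not met antigen, express the transcription factor TCF-1 (encoded by Tcf7) and the homing receptors of circulating T cells, whereas later cells express granzymes, perforin and chemokines. Absence of a UMI in a single cell is not absence of the protein, and it is more frequent in cells with fewer UMIs.

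The genes by which the label can be checked were present in all 4 libraries. Values are given below in the order isotype control, titled anti-hCTLA-4, titled anti-FcγRII and combination, as UMIs summed over the cells of a library per 1000000 UMIs of those cells (CPM). Cd3e, a chain of the T cell receptor complex, stood at 1735, 2017, 2089 and 1372 CPM, and Cd8a at 1006, 1518, 1179 and 1013 CPM, but both are in the rule. Trac, the constant region of the T cell receptor α chain, is not in the rule, and 100%, 100%, 100% and 99.1% of the cells had a UMI of it. Tcf7 was found in 44.6%, 40.4%, 50% and 30.3% of the cells and Gzmk, a granzyme of memory-like cells, in 27.7%, 35.1%, 28.6% and 29.4%. All 14 markers of the CD8 T cell list were detected in each library. That list includes Cd3d, Cd3e, Cd3g, Cd8a and Cd8b1, by which the cells were chosen, so their detection is no check of the label. Neither Tcf7 nor Gzmk was found in more than 50% of the cells of any library.

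Markers of other cell types were measured beside these. Of 8 B cell markers, 6 or 7 stood at 0 in every library and the most abundant, Cd79b, was at most 18.6 CPM. Of 8 markers of γδ T cells, Sox13, Il17a and Blk stood at 0 throughout, and the list summed to 43.9, 82.0, 124 and 112 CPM. The NK cell list summed to 1319, 646, 1078 and 2120 CPM, with Fcer1g, which myeloid cells also express, as its most abundant gene at 455, 192, 393 and 1137 CPM. Between 5 and 8 of its 9 measured genes were detected, Khdc1a stood at 0 in all libraries and Ncr1 at 13.7, 0, 89.8 and 2.37 CPM. The macrophage and monocyte list was detected with all 17 of its measured genes in every library. It took 0.463%, 0.197%, 0.390% and 1.05% of all UMIs of the cells, with Ctss, a protease of antigen-presenting cells, as its most abundant gene at 1171, 554, 730 and 2339 CPM. The dendritic cell list summed to 1626, 854, 1849 and 5139 CPM, with Cd74 as its most abundant gene at 948, 419, 1112 and 3044 CPM, and Flt3 and Cd209a at 0 in every library. The combination library was thus the highest in dendritic and macrophage transcripts although the rule limits 4 of these genes. Cells with at least 1% of their UMIs on that list numbered 6, 4, 2 and 18, or 30 in all, and each main comparison was repeated without such cells.

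The rule chose 65 cells in the isotype control library, 151 in the library titled anti-hCTLA-4, 42 in the library titled anti-FcγRII and 109 in the combination library. As a share of all CD8 T cells these were 60.7% (95% exact binomial interval 50.8 to 70.0), 49.5% (43.8 to 55.3), 60.0% (47.6 to 71.5) and 47.2% (40.6 to 53.8). The intervals overlap between each pair of libraries. They cover counting error only, as do all intervals below, and since there is 1 library per group the treatment and the library cannot be told apart. As a share of all cells kept after the filters on genes and mitochondrial UMIs, the cells were 0.798%, 2.37%, 0.690% and 1.43%. The library titled anti-hCTLA-4 stood highest and the library titled anti-FcγRII lowest, the same order as for all CD8 T cells, which were 1.31%, 4.79%, 1.15% and 3.04% of kept cells.

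Depth decides in part which cells lack a UMI. The median cell chosen had 4556, 4769, 5023 and 5638 UMIs, against 9460.5, 9661, 9025 and 12379.5 UMIs in the CD8 T cells with both genes. One cell with both genes in the combination library held 217027 UMIs, 10.6% of that sum. CD8 T cells with at least 2779 UMIs, the 10th percentile of their depths, were thinned at random to that number, which left out 13, 29, 11 and 19 shallower cells, and 76.7%, 64.6%, 70.7% and 68.0% of the remaining 94, 276, 59 and 212 cells then lacked at least 1 of the genes. Of the cells left out 12, 23, 10 and 18 were among those chosen at full depth, so the shares rest on other cells as well as on another depth. The isotype control library kept the highest share. The share of the combination then lay above that of the library titled anti-hCTLA-4, the reverse of the order at full depth. Just inside the rule lay 30 cells with 1 UMI of Pdcd1 and none of Havcr2 and 18 with 1 UMI of Havcr2 and none of Pdcd1, and just outside it lay 76 cells with both genes of which at least 1 was seen as a single UMI.

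**Figure D1:**
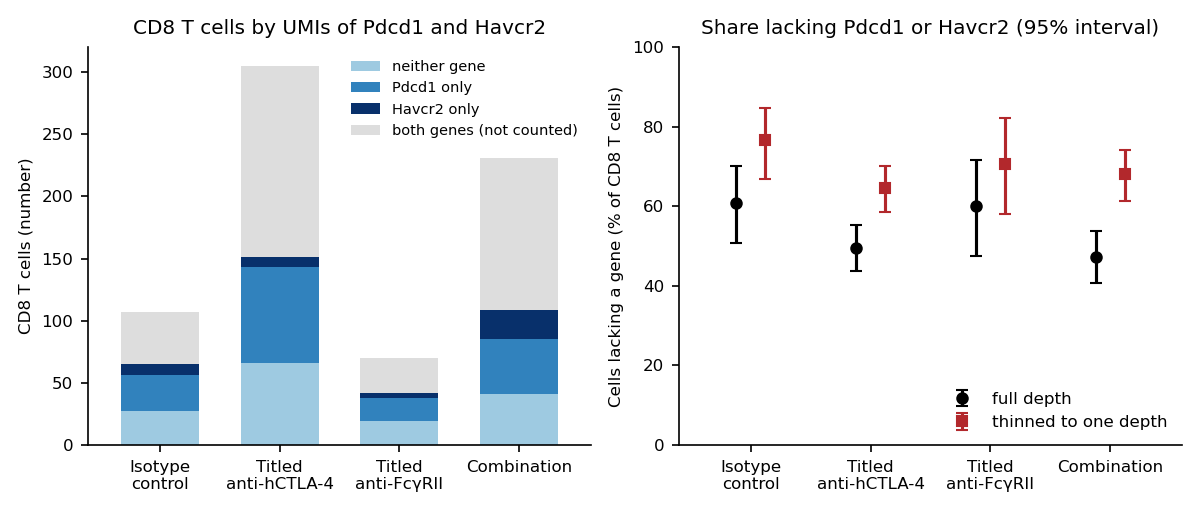
Left, number of CD8 T cells per library, stacked by the genes of which they held a UMI (neither, Pdcd1 only, Havcr2 only, or both, the last not chosen). Right, chosen cells as a percent of CD8 T cells at full depth (circles) and after thinning to 2779 UMIs (squares) with 95% exact binomial intervals; the thinned share is above the full share in all 4 libraries.

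The chosen cells were of 3 kinds. Of the 367 cells, 153 held neither gene, 169 held Pdcd1 only and 45 held Havcr2 only. Havcr2-only cells numbered 9, 8, 4 and 24, so the combination library held more than the other 3 libraries combined. Of these, 5, 2, 2 and 9 held a single Havcr2 UMI. In the Havcr2-only cells that held most of their library's UMIs of a listed gene, the macrophage list took 0.0171% to 3.12% of UMIs. Whether the Havcr2 UMIs came from the T cells themselves was not tested. The median depth of Havcr2-only cells was 9961, 9141.5, 12085 and 9315 UMIs, near that of cells with both genes, whereas cells with neither gene had 3692, 4329, 3902 and 3970 UMIs. The values that follow describe these kinds and come without a test. Of the kinds, only cells with neither gene were tested against cells with both, on sums per library, as an alternative to the comparison below. There 473 genes were higher and 515 lower of 6589 tested.

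Tcf7 (chromosome 11, 52252371 to 52283014, minus strand) was highest in cells with neither gene, at 443, 301, 283 and 239 CPM. In Pdcd1-only cells it stood at 112, 101, 137 and 64.9 CPM and in cells with both genes at 36.5, 6.11, 23.0 and 4.88 CPM. Havcr2-only cells stood at 36.8, 53.8, 145 and 45.2 CPM, on only 3, 4, 7 and 14 UMIs. In each library the cells with neither gene were highest and those with both lowest. In the isotype control library, however, the Havcr2-only cells were near level with the cells with both genes.

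Lag3, the gene of the inhibitory receptor LAG-3, did not follow that order. It stood at 32.8, 56.6, 18.3 and 117 CPM in cells with neither gene and at 675, 984, 2019 and 812 CPM in Pdcd1-only cells. In Havcr2-only cells it was 85.8, 376, 0 and 87.2 CPM, and in cells with both genes 860, 986, 1231 and 618 CPM. Within each of the 4 libraries Lag3 was thus higher in both kinds of cells that held Pdcd1 than in both kinds that did not. The Havcr2-only values rest on 7, 28, 0 and 27 UMIs. Of the Lag3 UMIs of the library titled anti-FcγRII, 49.8% lay in a single cell. Gzmk had no common order. It stood at 73.9, 182, 45.6 and 193 CPM with neither gene and at 328, 290, 283 and 142 CPM with Pdcd1 only, so it was higher in the Pdcd1-only cells of 3 libraries and lower in those of the combination.

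Ccl5, a chemokine of memory and effector T cells, was at its highest in cells with neither gene in 2 libraries, with 5378, 7128, 3486 and 5225 CPM. Ifng, the gene of interferon γ, stood at 140, 250, 246 and 239 CPM with neither gene and at 310, 329, 439 and 351 CPM with Pdcd1 only. In the 24 Havcr2-only cells of the combination it reached 2316 CPM, and most of that came from a single cell described below.

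**Figure D2:**
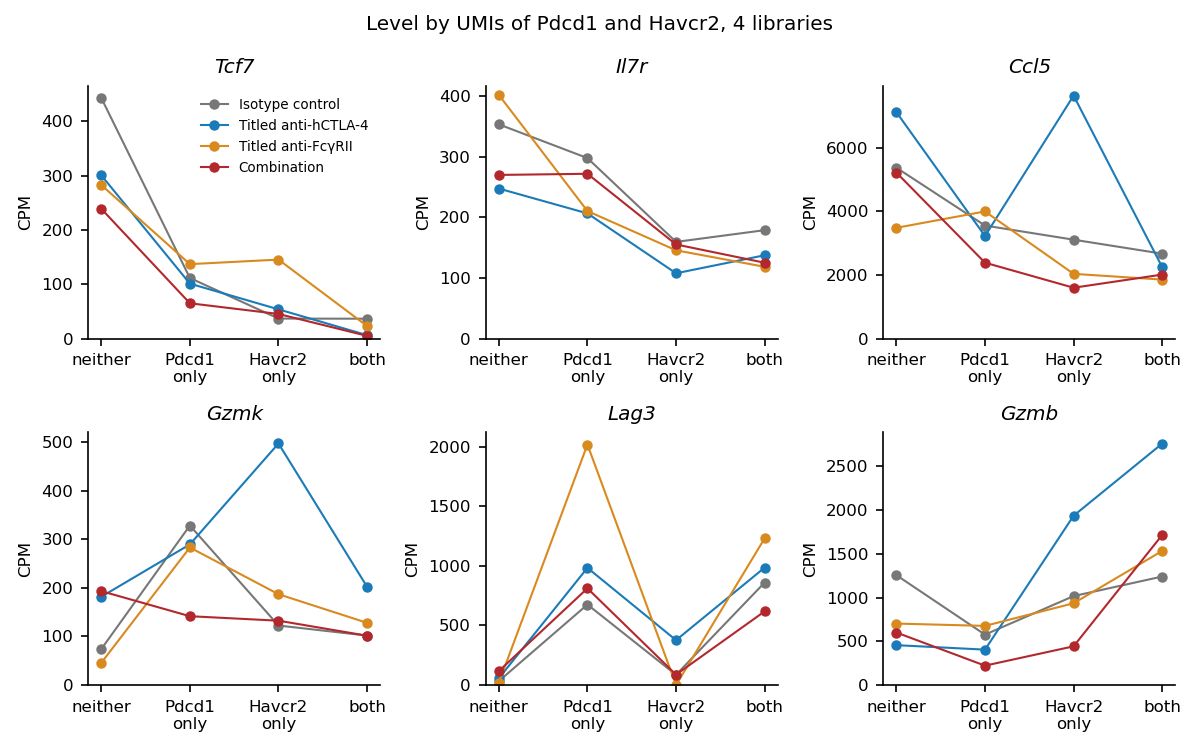
Level in CPM (linear axes) of 6 genes by kind of CD8 T cell, neither gene, Pdcd1 only, Havcr2 only and both, with 1 point per library and lines joining the points of a library. Tcf7 is highest in cells with neither gene in all 4 libraries, and Lag3 is higher in the kinds with Pdcd1.

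The chosen cells were then compared with the CD8 T cells that held both genes. This comparison has replication, because both classes were found in each of the 4 libraries. The libraries are also the 4 treatment groups, so a class difference that varies with treatment cannot be told apart from variation between libraries. UMIs were summed per library and class and tested with edgeR's quasi-likelihood test, with the library as a block, and p-values were adjusted after Benjamini and Hochberg over all genes. The genes of the rule were left out of all counts. Since the cells were split on Pdcd1 and Havcr2, and since the classes differ in depth, the counts after thinning are given beside those at full depth. Of 8366 genes tested, 440 (5.26%) were higher and 465 (5.56%) lower in the cells lacking a gene, at an adjusted p under 0.05. The median log2 fold change of all genes tested was -0.04. After leaving out cells with fewer than 2779 UMIs and thinning the others to that number before the classes were made, 110 genes were higher and 128 lower of 4889 tested. Of the 440 genes, 342 were tested again after thinning, 336 were in the same direction and 88 passed the test. Of the 465, these numbers were 338, 289 and 98. Without the library titled anti-hCTLA-4, 159 genes were higher and 83 lower at full depth, and among the genes that then did not pass were Gzmf, Ccl4, Adgrg1, Ifng, Tnf, Mki67, Ccl5 and Gzmk. Without the isotype control library 298 were higher and 250 lower, and without the combination 293 and 283.

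Genes of naive and stem-like T cells were higher in the cells lacking a gene. Of 14 tested genes, 12 were higher and 0 lower, with a median log2 fold change of 1.45. Tcf7 stood at 206, 171, 198 and 98.2 CPM in the cells lacking a gene and at 36.5, 6.11, 23.0 and 4.88 CPM in the cells with both. The classes did not overlap, and the log2 fold change was 3.67 (SE 0.30, adjusted p = 4.62e-05). Ccr7, the receptor that guides T cells into lymph nodes, rose by 2.06 (SE 0.23) and Lef1, a partner of TCF-1, by 1.56 (SE 0.18) on the log2 scale. Among the others called were Slamf6, Id3, Il7r, Bcl2 and Bach2. After thinning, 5 of 10 tested genes of the list were higher, among them Tcf7, Ccr7, Lef1 and Bcl2, and 0 were lower.

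Genes of egress and circulation were higher in all 6 tested cases, with a median of 1.83. S1pr1 (chromosome 3, 115710433 to 115715072, minus strand), the receptor by which T cells leave tissue, stood at 200, 103, 109 and 91.1 CPM against 11.5, 14.4, 16.4 and 9.76 CPM. Its log2 fold change was 3.11 (SE 0.22, adjusted p = 2.32e-05), and every library of the first class was above every library of the second. Klf2, a transcription factor that drives S1pr1, rose by 2.03 (SE 0.25). Sidt1, Itgb7, Klf3 and S1pr4 were the others. After thinning 4 of 5 tested genes were higher.

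Cytotoxic genes went the other way. Of 14 tested, 9 were lower and 2 higher, with a median of -1.19. Prf1 (chromosome 10, 61297833 to 61304680, plus strand), the gene of perforin, stood at 192, 219, 221 and 124 CPM against 645, 1217, 932 and 505 CPM and fell by 2.17 on the log2 scale (SE 0.15, adjusted p = 2.32e-05). Gzmb, the gene of granzyme B, fell by 1.58 (SE 0.26). Gzma was higher, at 323, 448, 202 and 91.1 CPM against 67.2, 86.7, 39.4 and 58.6 CPM, a log2 fold change of 1.79 (SE 0.24, adjusted p = 0.00138), and so was Ctsw. One cell held 52 of the 54 Gzma UMIs of the library titled anti-FcγRII, which stood at 7.74 CPM without it, below its cells with both genes. Another held 232 of 410 in the library titled anti-hCTLA-4, which stood at 197 CPM without it. After thinning 10 of 13 tested genes of the list were lower and 0 higher.

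Of 13 tested cytokine and chemokine genes, 6 were lower and 1 higher. Ccl3 and Ccl4, chemokines of activated T cells and macrophages, fell by 3.15 (SE 0.44) and 2.39 (SE 0.50), Ifng by 1.63 (SE 0.32) and Tnf by 0.96 (SE 0.22) on the log2 scale. Ccl5 was higher at full depth by 0.71 (SE 0.13, adjusted p = 0.00512) and stood at -0.06 after thinning. Gzmk was the only one of 15 effector memory genes called higher, with 197, 267, 168 and 150 CPM against 102, 202, 128 and 102 CPM. Its log2 fold change of 0.50 (SE 0.13, adjusted p = 0.0359) was 0.06 after thinning (adjusted p = 0.94) and -0.09 when only cells with neither gene were compared with cells with both. Prdm1, Cd44 and Klrc1 of that list were lower. After thinning 6 of 12 cytokine and chemokine genes and 7 of 14 effector memory genes were lower, with Klrd1, Id2, Ly6a and Il2rb added in the latter, and 0 of each list were higher. Without cells rich in macrophage transcripts 9 of 15 effector memory genes were lower.

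Among 18 tested genes of inhibitory receptors and exhaustion, 7 were lower and 2 higher. Lag3 stood at 329, 594, 835 and 385 CPM against 860, 986, 1231 and 618 CPM, and fell by 0.89 on the log2 scale (SE 0.15, adjusted p = 0.00312). Nr4a2, Nr4a3, Cd244a, Rbpj and Entpd1 were among the others that were lower. Btla, another inhibitory receptor, was higher with a log2 fold change of 1.97 (SE 0.30, adjusted p = 0.00213), and so was Ikzf2. Btla was not among the genes tested after thinning, and in edgeR without the library as a block it did not pass (adjusted p = 0.0606). Tox, a transcription factor of exhausted cells, was lower in 3 of 4 libraries and did not pass, with a log2 fold change of -0.47 (SE 0.28, adjusted p = 0.324). Of the costimulatory receptors, Tnfrsf9 (4-1BB) and Tnfrsf1b were lower and Cd2 higher of 11 tested. Of 17 genes induced by the T cell receptor, Egr2, Egr3, Irf4 and Nr4a1 were lower and Fos and Fosb higher. After thinning, 8 of 15 inhibitory and exhaustion genes, 3 of 11 costimulatory genes and 5 of 17 genes induced by the T cell receptor were lower, and 0 of each list higher.

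Interferon-induced genes were higher in the cells lacking a gene. Of 18 tested genes of the type I response 9 were higher and 0 lower, with a median of 0.79. Ifit3 stood at 222, 230, 202 and 206 CPM against 136, 48.3, 13.1 and 93.7 CPM, without overlap, and its log2 fold change was 1.54 (SE 0.27, adjusted p = 0.00492). Zbp1, Rtp4 and Oas3 were also higher. Isg15 was lower in the isotype control library and higher in the others, and did not pass with a log2 fold change of 0.56 (SE 0.31, adjusted p = 0.277). Of 19 tested genes of the interferon γ response 10 were higher, among them Igtp, Irgm1 and Irf1, and 0 lower. After thinning 11 of 16 type I genes, Isg15 among them, and 4 of 18 interferon γ genes were higher.

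Cell cycle and glycolysis genes were lower at full depth, in 13 of 26 and 8 of 18 tested cases, and none was higher. Fewer passed in settings that limit depth. After thinning 0 of 18 cell cycle genes passed in either direction and 2 of 15 glycolysis and hypoxia genes, Tpi1 and Pfkp, were lower. Between the 25th and the 75th percentile of depth 1 of 15 cell cycle genes, Mki67, and 4 of 17 glycolysis and hypoxia genes were lower. Mki67, a proliferation marker, fell by 0.70 at full depth (SE 0.13, adjusted p = 0.00679) and stood at 0.06 after thinning. Between those percentiles it stood at -0.76 (adjusted p = 0.0486). Of the remaining lists, tissue residency had 3 genes higher (Itgae, Cd69 and Cd101) and 2 lower of 11, cytokine receptors 3 higher and 3 lower of 20, chemokine receptors 3 higher (Cxcr3, Ccr7 and Cxcr4) and 0 lower of 8, and heat shock 1 lower of 13. After thinning, residency had 1 gene higher (Cd69) and 2 lower (Rgs1 and Cxcr6) of 9, cytokine receptors 2 higher and 3 lower of 17, chemokine receptors 2 higher (Ccr7 and Cxcr3) and 1 lower (Cxcr6) of 7, and heat shock none of 11.

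The single genes with the largest changes in the same direction in all 4 libraries were named from 376 higher and 376 lower genes that met the required level. Those higher were Itgae, Trbv17, Tcf7, Dapl1, Pde2a, Id3, S1pr1, Nsg2, Ighm, Trbv3, Cd7 and Cxcr3. Itgae, the αE integrin that binds epithelial cadherin, stood at 35.6, 98.4, 78.6 and 27.2 CPM against 13.4, 1.11, 0 and 0 CPM, with a log2 fold change of 4.62 (SE 0.65, adjusted p = 0.00155). It was not among the genes tested after thinning. Ighm encodes the constant region of immunoglobulin µ and stood at 337, 242, 371 and 144 CPM against 69.1, 41.7, 59.1 and 17.6 CPM, while the B cell markers were at or near 0 as given above. The 2 Trbv genes are variable segments of the T cell receptor β chain. Neither passed after thinning or in cells of middle depth (4395 to 12466 UMIs, between the 25th and the 75th percentile) where it could be tested. Those lower were Gzmf, Ccl3, Rgs8, Sv2c, Ccl4, Prf1, Adgrg1, Sema7a, H2-Ab1, H2-Eb1, Prdm1 and Tppp3. The 60 UMIs of Gzmf in the isotype control library all came from 1 cell.

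H2-Ab1 and H2-Eb1 encode MHC class II chains of antigen-presenting cells, and macrophage and dendritic markers moved with them. Of 12 tested macrophage and monocyte markers 4 were lower and 0 higher in the cells lacking a gene, and of 4 dendritic markers 3 were lower. After thinning 0 of 9 macrophage and 0 of 4 dendritic markers passed, with medians of 0.31 and -0.04. H2-Ab1 stood at 238, 131, 236 and 959 CPM against 1486, 557, 913 and 1457 CPM. Its log2 fold change of -1.84 was -0.26 after thinning (adjusted p = 0.79) and -0.74 at middle depths (adjusted p = 0.0351). That of H2-Eb1 was -1.79 at full depth, -0.40 after thinning and -0.64 at middle depths (adjusted p = 0.14). With the macrophage genes of the rule under 0.05% of UMIs neither passed. H2-Ab1 then stood at -0.68 (adjusted p = 0.38) and H2-Eb1 at -0.64 (adjusted p = 0.46). Without cells with 1% or more of their UMIs on the macrophage list, the log2 fold changes were -2.39 for H2-Ab1 and -2.13 for H2-Eb1 and both passed, and 4 of 9 macrophage and 3 of 4 dendritic markers were lower. In that setting 542 genes were higher and 569 lower of 7115 tested. Of the lists, 12 of 14 naive and stem-like genes, 6 of 6 egress genes, 11 of 16 type I interferon genes and 10 of 19 interferon γ genes were higher, and 9 of 14 cytotoxic genes were lower. Also lower were 17 of 25 cell cycle genes and 10 of 16 glycolysis and hypoxia genes, with 0 higher in either list. The interferon genes called were in part others than at first, with Isg15, Irf7, Bst2 and Cd274 added.

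**Figure D3:**
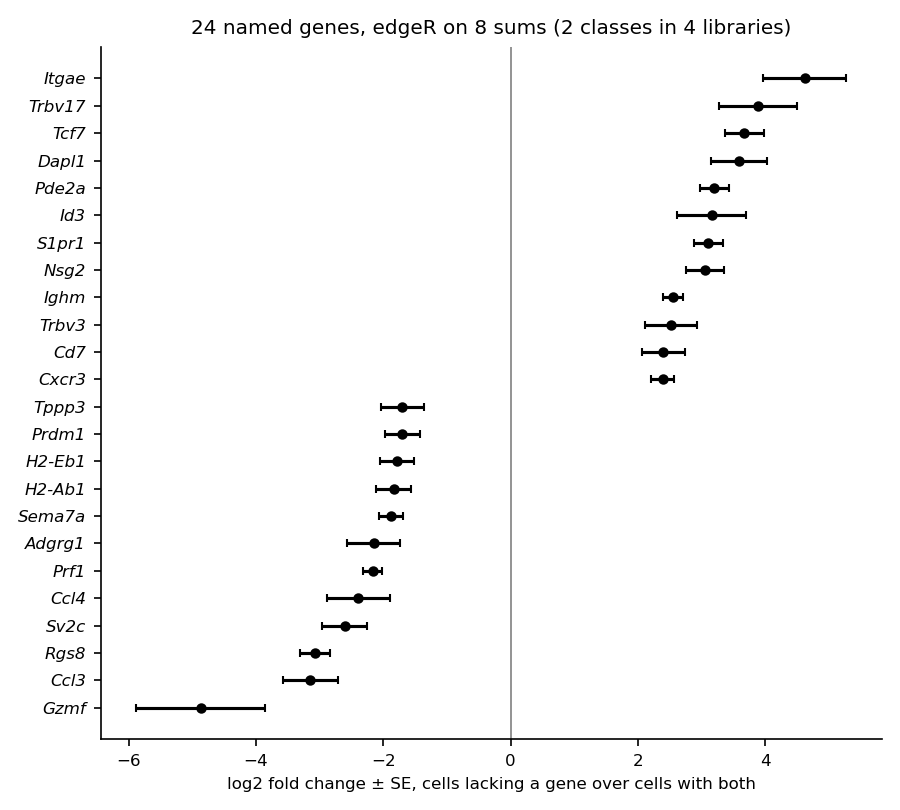
The 24 named genes of the comparison of cells lacking Pdcd1 or Havcr2 with CD8 T cells with both, as log2 fold change (points) with the standard error of edgeR's quasi-likelihood fit (bars) over 4 libraries. Tcf7 and S1pr1 lie at 3.67 and 3.11, Prf1 at -2.17, and the bars of Gzmf and Itgae are the widest.

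Differences between the libraries were described next, within the cells lacking a gene. With 1 library per group none of them can be tested. A gene was compared where both libraries together held at least 30 UMIs of it, and counted as past the fold where its ratio was at least 2 or at most 0.5 and the exact conditional 95% interval of the ratio did not hold 1. In the combination against isotype control, 372 of 7242 genes were higher (5.14%) and 179 lower (2.47%). With TMM scaling the numbers were 473 and 115, and the median log2 ratio of all genes moved up by 0.12. Against the library titled anti-hCTLA-4, 568 of 8107 genes were higher (7.01%) and 290 lower (3.58%). Against the library titled anti-FcγRII, 521 of 7008 were higher (7.43%) and 199 lower (2.84%). These comparisons share the combination library.

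Naive and stem-like genes were low in the combination, and egress genes were low in it beside isotype control. Of 14 naive and stem-like genes compared with isotype control 5 were lower (among them Tcf7, Ccr7, Myb and Dapl1) and 0 higher, and the median ratio was 0.563 against 0.950 over all genes. Of 6 egress genes 4 were lower (S1pr1, Klf2, Klf3 and Sidt1) and 0 higher, but against each of the other libraries only Sidt1 was lower, with list medians of 0.808 (titled anti-hCTLA-4) and 0.721 (titled anti-FcγRII). S1pr1, at 200, 103, 109 and 91.1 CPM, stood apart in the isotype control library. Tcf7 stood at 206, 171, 198 and 98.2 CPM, so that the combination was the lowest of the 4 libraries, and its ratio to isotype control was 0.478 (95% interval 0.345 to 0.662). It was not past the fold with TMM scaling. Ccr7 stood at 225, 194, 187 and 60.4 CPM, with a ratio of 0.269 (0.186 to 0.386). Dapl1, a gene of naive T cells, showed the widest range, at 244, 36.1, 314 and 3.55 CPM, and the combination value rests on 3 UMIs. Against the library titled anti-hCTLA-4 3 of 14 naive and stem-like genes were lower and against the library titled anti-FcγRII 8 of 13. Without cells rich in macrophage transcripts 6 of 14 naive and stem-like genes and 3 of 6 egress genes were lower than in isotype control, and 0 higher, beside 136 lower and 209 higher of all 5997 genes compared.

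The combination also had the lowest shares of cells with Ccr7 and with Tcf7 at a common depth, while the order of the other libraries differed from that of the CPM. After thinning, with 53, 128, 32 and 91 cells deep enough, Ccr7 was found in 31.0%, 20.6%, 32.1% and 8.74% of the cells. The interval of the combination, 3.87 to 16.6, lay below that of isotype control, 18.3 to 44.3, and overlapped those of the libraries titled anti-hCTLA-4 (13.7 to 28.3) and anti-FcγRII (16.1 to 50). Of the 25 genes measured this way Ccr7 had the lowest share in the combination relative to isotype control. Tcf7 was found in 37.0%, 31.1%, 40.2% and 20.2%, and the intervals of the combination (12.2 to 29.4) and isotype control (24.8 to 52.1) overlap. Cxcr6, a chemokine receptor of tissue-resident cells, went the other way, with 48.7%, 63.7%, 56.2% and 72.3%, and here too the intervals of the combination (62.2 to 81.4) and isotype control (35.1 to 63.2) overlap. Unthinned, the shares with Ccr7 were 32.3%, 24.5%, 40.5% and 11.0%. In macrophage-gated cells thinned the same way, which should lack these genes, Ccr7 was found in 0.395%, Tcf7 in 0.351% and Cxcr6 in 0.304% of 15482 cells. The median depth of those cells before thinning was 19980 UMIs.

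Shares with a Gzmk UMI were 18.6%, 25.5%, 15.5% and 22.8%, with Gzmb 31.6%, 34.5%, 34.8% and 32.4%, with Ifng 33.9%, 37.6%, 48.8% and 40.9% and with Lag3 29.9%, 39.5%, 28.8% and 35.8%. For each of these 4 genes the intervals of all libraries overlap. Tox was found in 26.0%, 20.9%, 20.8% and 11.8%. Mki67 was found in 12.3%, 16%, 21% and 11.2%, close to or below the 18.7% of macrophage-gated cells, which can divide, and Tnf and Isg15 were also frequent in those cells, at 20.4% and 31.1%.

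**Figure D4:**
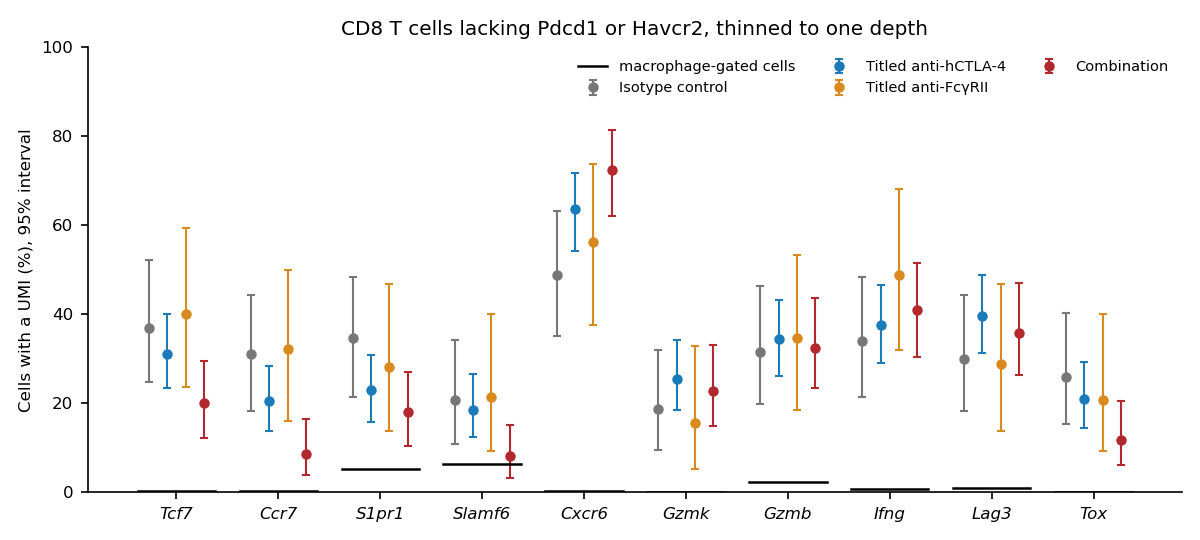
Percent of the chosen cells with at least 1 UMI of a gene after thinning to 2779 UMIs, by library, with 95% exact binomial intervals; black lines give the share in macrophage-gated cells. Ccr7 is lowest in the combination, at 8.74%, and Cxcr6 highest there, at 72.3%.

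Cytokine and chemokine genes were high in the combination, and much of that lay in a single cell. Against isotype control 6 of 14 genes compared were higher (Ifng, Tnf, Il2, Ccl3, Ccl4 and Ccl1) and 0 lower. Ccl4 (chromosome 11, 83662584 to 83664683, plus strand) stood at 74.0, 290, 183 and 1623 CPM, a ratio of 21.9 (15.0 to 33.4). Ifng stood at 214, 312, 314 and 1045 CPM. One cell of the combination library, with 9075 UMIs, 7 of Havcr2 and none of Pdcd1, held 939 of the 1371 Ccl4 UMIs, 653 of 883 for Ifng, 355 of 479 for Ccl3 and 175 of 178 for Il2. Its share of macrophage marker UMIs was 0.0771%. Without that cell the combination stood at 517 CPM for Ccl4, 275 CPM for Ifng, 148 CPM for Ccl3 and 3.59 CPM for Il2. Another cell held 343 of the 370 Ccl1 UMIs. When the highest cell of each gene was left out in each library, 3 of 12 genes were higher and 0 lower. Counts over all genes in that setting are not given, so list counts with the highest cell left out, here and below, have no background beside them.

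Tnf was spread over more cells, with 34, 119, 22 and 300 UMIs in 18, 46, 16 and 47 cells and 93.2, 130, 82.3 and 355 CPM. Its ratio to isotype control was 3.81 (2.67 to 5.60), but in cells with neither gene it was 0.974. Early genes of the T cell receptor pathway were partly high in the combination, with Nr4a1, Egr2 and Nfkbid higher and 0 lower of 17. The cytotoxic list had 5 genes lower of 13 (Gzma, Gzmb, Gzmc, Gzmd and Gzmf) and 0 higher, and with the highest cell of each gene left out 1 of 10 was lower. Of 18 genes of inhibitory receptors and exhaustion, Nr4a3 and Cd38 were higher and Tox, Cd200, Nrp1 and Btla lower. Tox stood at 126, 101, 82.3 and 53.3 CPM.

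Glycolysis and hypoxia genes were higher in the combination in 6 of 17 cases against isotype control, in 9 of 18 against the library titled anti-hCTLA-4 and in 7 of 17 against the library titled anti-FcγRII, and lower in none. Slc2a1, the glucose transporter GLUT1, stood at 148, 136, 146 and 366 CPM, a ratio of 2.47 (1.85 to 3.36). Hilpda, a hypoxia-induced lipid droplet gene, stood at 54.8, 54.7, 41.2 and 212 CPM and Ero1l, an oxidase of the endoplasmic reticulum, at 167, 234, 213 and 572 CPM. The combination was the highest library for each of them. Vegfa stood at 35.6, 35, 247 and 199 CPM. Without the cells rich in macrophage transcripts 4 of 16 genes were higher than in isotype control, 5 of 17 than in the library titled anti-hCTLA-4 and 5 of 17 than in the library titled anti-FcγRII, where 1 was lower. Of all genes compared in that setting, 209 of 5997, 166 of 7446 and 235 of 5709 were higher in the same order, and 136, 164 and 112 lower. Vegfa then lay below the library titled anti-hCTLA-4, with a ratio of 0.770.

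Cell cycle genes were low in the combination, most of all beside the library titled anti-hCTLA-4, where 21 of 25 compared genes were lower. Against isotype control 6 of 19 and against the library titled anti-FcγRII 10 of 19 were lower, and none was higher. Mki67 stood at 184, 310, 348 and 87.6 CPM. These UMIs came from few cells, 13, 31, 10 and 16 of them, and 1 cell held 50.5% of those of the library titled anti-FcγRII. With the highest cell of each gene left out, 18 of 21 genes were lower than in the library titled anti-hCTLA-4 and 1 of 14 than in isotype control. Without cells rich in macrophage transcripts, 6 of 25 and 1 of 19 were lower, beside 164 of 7446 and 136 of 5997 of all genes compared. Between the 25th and the 75th percentile of depth the ratio of Mki67 to isotype control was 1.95, and its ratio to the library titled anti-hCTLA-4 went from 0.283 to 0.777 (0.529 to 1.13), no longer past the fold.

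Of 18 type I genes compared with isotype control 4 were higher in the combination (Isg15, Ifit2, Oasl1 and Rsad2), and of 19 interferon γ genes 5 (Gbp2, Gbp5, Iigp1, Socs1 and Cd274), with 0 lower in either list. Cd274, which encodes PD-L1, stood at 123, 122, 142 and 449 CPM, a ratio of 3.64 (2.66 to 5.07). Without cells rich in macrophage transcripts 1 of 16 and 0 of 18 were higher, beside 209 of all 5997 genes compared. Type I genes were then lower than in the library titled anti-hCTLA-4 in 4 of 17 cases and higher in 0, beside 164 lower and 166 higher of all 7446 genes compared. Against isotype control no gene was past the fold of 11 residency genes, 11 costimulatory receptors and 20 cytokine receptors. Itgae and Xcl1 of the residency list were lower in the combination than in each single antibody library, and Zfp683 was higher than in the library titled anti-FcγRII. A single cell held 165 of the 193 Xcl1 UMIs of the library titled anti-FcγRII, which stood at 116 CPM without it. In the combination a single cell held 13 of the 23 Itgae UMIs. Of the cytokine receptors Ifngr2 was higher than in the library titled anti-hCTLA-4 and Il15ra than in the library titled anti-FcγRII.

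**Figure D5:**
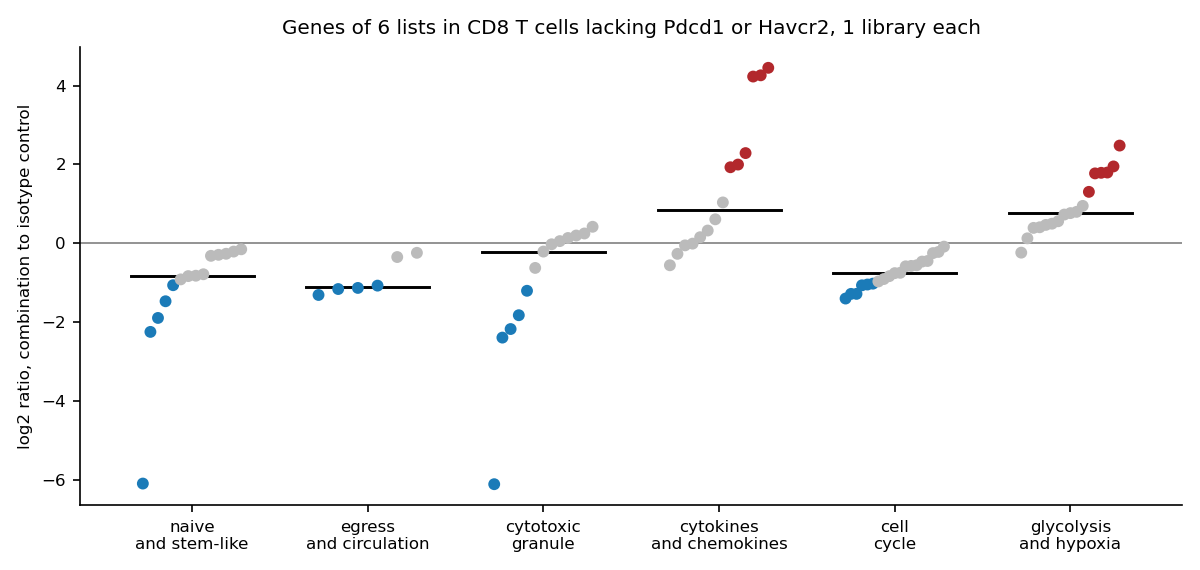
log2 ratio of the combination to isotype control in CD8 T cells lacking Pdcd1 or Havcr2, 1 point per gene of 6 lists, ordered within a list; red and blue mark genes past the fold, black lines the list medians. The medians of naive and stem-like, egress and cell cycle genes lie below 0, and Ccl4, Ccl3 and Il2 stand at the top of the cytokines, with 68.5%, 74.1% and 98.3% of their UMIs in the combination from 1 cell.

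The single genes that set the combination apart from each of the other libraries were in part macrophage genes. Of 222 genes higher against all 3 libraries, 96 also met the requirements on level and on spread over cells. Among the 6 with the largest ratios to isotype control were Acod1, Dram1, Rab20, Ralgds and Ninj1. Acod1, a gene of activated macrophages, stood at 16.4, 19.7, 41.2 and 262 CPM. Ninj1, a membrane protein of macrophages and other cells, stood at 52.1, 64.5, 52.4 and 344 CPM. Without the cells rich in macrophage transcripts Ninj1 was 1.80 times the library titled anti-hCTLA-4, not past the fold. Ralgds, an exchange factor for Ral GTPases, was 2.22 times the library titled anti-hCTLA-4, and 0.892 times without those cells. H2-Ab1 and Cd74 were also higher, at 238, 131, 236 and 959 CPM and at 948, 419, 1112 and 3044 CPM. How much of the difference between libraries is RNA of macrophages in or around the T cells was not tested beyond these values.

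Only 28 genes were lower in the combination than in all 3 libraries, and 8 of them met the requirements. The 6 with the smallest ratios were Car2, Rras2, Sema4b, Tespa1, Sidt1 and Rbm12b2. Rras2, a Ras-like GTPase of lymphocytes, stood at 167, 118, 176 and 50.9 CPM, with a ratio to isotype control of 0.304 (0.201 to 0.457), and was found in 31, 59, 21 and 34 cells. Car2, a carbonic anhydrase, stood at 57.6, 76.6, 105 and 16.6 CPM, and 1 cell held 85.7% of its UMIs in the library titled anti-FcγRII. Tespa1, a protein of early T cell receptor signaling, stood at 85.0, 86.4, 109 and 36.7 CPM. Without cells rich in macrophage transcripts Rras2 was 0.609 and Tespa1 0.587 times the library titled anti-hCTLA-4, Tespa1 was 0.522 times isotype control and Sidt1 was 0.533 times the library titled anti-FcγRII, none of them past the fold.

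The single antibody libraries were set beside isotype control in the same way, with fewer cells in the library titled anti-FcγRII. In the library titled anti-hCTLA-4, 173 of 7362 genes were higher (2.35%) and 208 lower (2.83%). Of 12 cytokine and chemokine genes 4 were higher (Ccl3, Ccl4, Xcl1 and Ccl1), of 11 residency genes 2 (Itgae and Xcl1) and of 23 cell cycle genes 3 (Ccna2, Cenpf and Tyms), and 7 of 10 macrophage markers were lower. The 4 genes named for the largest ratios were Chst2, Rnaseh2a, Xrcc5 and Lrrc8a, each with 48 or 49 UMIs against 4 or 5, and those for the smallest were Slc15a3, Pirb, Grn and Fgr. Grn went from 0.308 to 0.691 times isotype control (0.417 to 1.18) without cells rich in macrophage transcripts, and was then not past the fold. Slc15a3, a transporter of macrophages, stood at 178, 39.4, 82.3 and 271 CPM. In the library titled anti-FcγRII, with 42 cells the smallest, 70 of 5270 genes were higher (1.33%) and 157 lower (2.98%). Xcl1, Lag3 and Gzmc were among those higher, at 722, 835 and 3354 CPM. The highest cell of each gene held 85.5%, 49.8% and 99.2% of its UMIs, and that cell was the same for Xcl1 and Gzmc but not for Lag3. Mxd1, a transcriptional repressor of the MAX network, was spread over 20 cells and stood at 46.6, 152, 146 and 234 CPM. It was past the fold against isotype control in all 3 antibody libraries. The other genes named for the largest ratios were Ubxn2b, Dipk2a and Tgtp1. The smallest ratios were those of Pirb, Lpgat1, Hsph1 and Glb1.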

How the data were processed

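The deposited files hold UMI counts, whole numbers for each gene in each cell, made by the authors with Cell Ranger from a probe-based library (version 7.2.0 per the file headers, 7.0.0 in the submitters' processing notes, build mm10), of barcodes called as cells, before the doublet removal the article describes. The 4 libraries held 178178393, 129151823, 142472286 and 196362818 UMIs. They shared 0 whole barcodes, and 712 to 1148 barcodes per pair with the same first 16 bases. Of 28290 cells 28194 passed the filters. Scrublet in scanpy 1.11.5 called only 0 to 2 cells per library and had thus not worked, so doublets were kept and the 5% with the highest scores, 4 of the 367 cells, were left out as an alternative. Genes were placed by Ensembl identifier with GENCODE release 21 (GRCm38).

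UMIs were summed per library and class. Classes were tested with edgeR 4.0.16 (TMM, filterByExpr, library as block) at an adjusted p of 0.05, with DESeq2 1.42.0 as an alternative. Libraries were compared by ratios without a test. Shares rest on 100 draws of thinning, those of macrophage-gated cells on 5 draws, and the classes after thinning on 1 draw. The class test and the rule for library ratios were tested on simulated data. The members and lists were chosen with earlier results of these data known. Named genes were the 12 with the largest log2 fold change in each direction, with an adjusted p under 0.05, the same direction in 4 libraries and at least 50 CPM, then per library the genes with extreme ratios at 50 CPM or more, in at least 5 cells and with at most 20% of UMIs in 1 cell, the most abundant and extreme genes of each list, and genes the study names. Further list genes, Trbv segments and single cells were named after their values were seen. Cx3cr1, Gapdh and Eno1 were not analysed here. Results of a few further genes are not reported here, and counts and medians of lists include them.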

Additional observations from a re-analysis of the deposited data

How the results depend on the processing

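The share of CD8 T cells chosen depended on the definition, in the order isotype control, titled anti-hCTLA-4, titled anti-FcγRII and combination. With neither gene detected it was 25.2%, 21.6%, 27.1% and 17.7%. With under 2 UMIs of either gene it was 72.9%, 58.7% and 59.3% in the isotype control, titled anti-hCTLA-4 and combination libraries, and after thinning 76.7%, 64.6% and 68.0%. The number of genes past the fold between libraries fell in most subsets, where fewer cells were compared. For the combination against isotype control it went from 551 to 345 without cells rich in macrophage transcripts, 301 between the 25th and 75th percentile of depth, 279 in cells with neither gene and 210 for genes with at least 100 UMIs. Against the library titled anti-hCTLA-4 it went from 858 to 330, 235, 352 and 320 in these settings, and to 417 with macrophage genes under 0.05% of UMIs. The same count against the library titled anti-FcγRII went from 720 to 347, 293, 344, 267 and 404. For the library titled anti-hCTLA-4 against isotype control it went from 381 to 221 without the macrophage-rich cells, 231 with neither gene and 93 at 100 UMIs. For the library titled anti-FcγRII it went from 227 to 140 with macrophage genes under 0.05%, 35 at 100 UMIs, 418 at 10 UMIs and 355 as a mean over cells.

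Some ratios of single genes crossed 1, and the cause was not tested. Combination to isotype control was 1.95 for Mki67 at middle depths and 0.974 for Tnf in cells with neither gene. Against the library titled anti-hCTLA-4, Ralgds was 0.901 with macrophage genes under 0.05%, 0.892 without macrophage-rich cells and 0.903 at middle depths, Vegfa 0.770 without macrophage-rich cells, Hspa1a 1.63 with at least 6 Cd3 and 4 Cd8 UMIs, Ifng 0.956 and Tnf 0.709 in cells with neither gene, and Ifng 0.946 without its highest cell. Beside the library titled anti-FcγRII, Rsad2 was 0.525, 0.838 and 0.702 in the first 3 of these settings, Ralgds 0.914 without macrophage-rich cells, Mki67 1.08 at middle depths and Ifng 0.970 in cells with neither gene. Hspa1a in the library titled anti-hCTLA-4 against isotype control was 5.20 in cells with neither gene. Of the other ratios 3766 lay within the counting interval of the first value, and 526 moved outside it. In the class comparison, log2 fold changes turned for Ccl5 (-0.056) and Mki67 (0.056) after thinning and for Gzmk (-0.091) in cells with neither gene.

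Genes higher and lower in the class comparison numbered 110 and 128 after thinning, 159 and 193 at middle depths, 255 and 201 with DESeq2, 159 to 397 and 83 to 424 with 1 library left out, and 748 lower without a filter on low counts. Without the replicate block, that is, without pairing the classes within a library, 134 were higher and 48 lower, and of the genes named or fixed for this comparison 32 lost their call and 20 kept their side of the threshold. The pairing comes from the design, since both classes of a library come from the same pooled mice. With 42 cells, the library titled anti-FcγRII rests on the fewest chosen cells.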

Other observations

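Variable segments of the T cell receptor β chain were looked at because Trbv17 and Trbv3 were among the named genes. Of the cells lacking Pdcd1 or Havcr2, 64 of 65, 147 of 151, 41 of 42 and 102 of 109 (isotype control, titled anti-hCTLA-4, titled anti-FcγRII and combination) had a UMI of at least 1 of the 22 segments measured. Each cell was assigned the segment with most UMIs. Trbv12-2 was the most frequent in all 4 libraries, in 14, 21, 9 and 15 cells, or 21.9%, 14.3%, 22% and 14.7%. In CD8 T cells with both genes Trbv12-2 led in the isotype control library, with 14 of 41 cells, Trbv31 led in the library titled anti-hCTLA-4 with 36 of 151, Trbv5 and Trbv31 shared the lead in the library titled anti-FcγRII with 7 cells each of 28, and Trbv5 led in the combination with 24 of 120. Segments of a family can share probe binding sites, so their assignment is uncertain, and no test was made.

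A few cells carried transcripts apart from the rest. In the library titled anti-FcγRII, 1 cell with 24792 UMIs and neither Pdcd1 nor Havcr2 held 889 of 896 Gzmc UMIs, 165 of 193 for Xcl1, all 21 for Csf2, all 24 for Ncr1, an NK cell receptor gene, and 47 of 93 for Mki67. In the isotype control library, 1 cell with 7689 UMIs held 116 of 117 S100a8 UMIs, 130 of 131 for S100a9 and all 18 for Retnlg, which are neutrophil genes, and another cell with 16948 UMIs and 30 of Pdcd1 held all 60 Gzmf, all 25 Gzmd and all 10 Gzme UMIs.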
